A study of Mus musculus with 24 samples.

Results

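The genes described here encode collagens, laminins and other core proteins of the muscle extracellular matrix. They were taken by symbol, as every collagen alpha chain gene (Col, a number, a, a number), every laminin alpha, beta or gamma chain gene, and fibronectin (Fn1), both nidogens (Nid1 and Nid2), perlecan (Hspg2) and osteonectin (Sparc). The rule uses no measured value and found 60 of the 56941 genes listed, but it was chosen with earlier results of these data known. Of the 60, 40 had enough reads to be tested, among 13315 genes tested in all, 20 did not, and 3 of those 20 had no read in any library.

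RNA came from sheets of C2C12 muscle, grown from 1 mouse myoblast line that carries the light-gated ion channel ChR2 fused to tdTomato, on stamped fibrin gels. All tissues were differentiated in medium with horse serum and IGF-1, and all of them, unstimulated ones included, twitched spontaneously. Control tissues received no light stimulation, and the other groups received daily blue-light pulses for 60 min at 1 Hz, 4 Hz or 10 Hz. Each of the 4 groups had 6 libraries, described by the study as biological replicates, so that p-values measure the spread between tissues of 1 line. The study asked how training frequency changes gene expression, and here that question is put to the matrix genes.

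Muscle fibers are wrapped in a basement membrane, a thin sheet in which a laminin network and a type IV collagen network are bridged by nidogens and perlecan. Outside it lie fibrils of collagens I, III and V, decorated by fibril-associated collagens such as XII, XIV and XVI, and collagen VI filaments between both layers. Laminin is a trimer of 1 alpha, 1 beta and 1 gamma chain, and the laminin of adult muscle carries the alpha2 chain encoded by Lama2. Fibronectin is an early matrix protein on which collagen assembles, and Sparc encodes a collagen-binding matricellular protein.

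Collagen chains share a repeat of Gly-X-Y that can be read directly in the coding sequence. The 4 stretches of 90 coding bases below show it for chains whose values are described further on. They run from the start of the longest repeat in Col11a2, Col1a1 and Col20a1 and across a break of the repeat in Col4a1. Capitals mark the glycine codons that lie in runs of 5 or more triplets. Glycine codons outside such runs, as in the break of Col4a1, are in lower case. The stretches are from the GENCODE M39 transcripts on GRCm39 and written 5′ to 3′ on the coding strand.
Col1a1: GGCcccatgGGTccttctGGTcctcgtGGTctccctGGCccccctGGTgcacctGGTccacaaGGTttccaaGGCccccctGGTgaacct
Col11a2: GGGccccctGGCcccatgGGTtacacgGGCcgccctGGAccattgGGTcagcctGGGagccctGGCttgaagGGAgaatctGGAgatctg
Col20a1: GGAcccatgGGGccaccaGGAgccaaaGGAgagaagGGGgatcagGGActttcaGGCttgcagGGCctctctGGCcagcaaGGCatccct
Col4a1: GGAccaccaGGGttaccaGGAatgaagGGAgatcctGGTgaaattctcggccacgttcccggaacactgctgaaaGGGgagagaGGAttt
In Col1a1 (chr11:94827050-94843868, plus strand) the repeat runs for 338 triplets without a break, and in Col11a2 (chr17:34258108-34285664, plus strand) for 338 as well. In Col20a1 (chr2:180628316-180660156, plus strand) the longest run has 32 triplets, as in the other fibril-associated chains Col12a1 and Col14a1. Col4a1 (chr8:11248423-11362826, minus strand) carries 22 runs of 5 or more triplets, the longest of 40, so that the network-forming chain is interrupted often. No such run was found in the coding sequences of the laminin chains, Fn1, Hspg2, Nid1, Nid2 or Sparc. These transcripts are long, and 29 of the 40 tested members were among the 20% of tested genes with the longest transcripts.

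The libraries held 8052369 to 18159144 estimated counts, and the biological coefficient of variation was 14.8%. In 5 libraries, replicates 4 and 6 at 1 Hz and replicates 1, 3 and 4 at 4 Hz, genes with short transcripts stood higher than genes with long ones, by 0.61 to 0.89 on the log2 scale between the shortest 20% and the longest 20% of genes and relative to the controls, against at most 0.36 in the other 19. The labels say that samples of low input were ribodepleted rather than selected by poly(A), without saying which, and the part of this in the length difference was not tested. The scale also mattered. On log2(TPM + 1), which is divided by transcript length and scaled to a fixed total, the median of all genes lay at -0.14 at 1 Hz and -0.21 at 4 Hz against control, whereas on the scaled counts it lay at 0.04 and 0.06. Values below are TMM-scaled CPM (reads of a gene relative to the size of its library) unless TPM is named, and CPM are not compared between genes.

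In the controls Sparc had the highest level of the 60 genes, with a median of 1864 TPM, and made up 52.0% of their summed TPM. Fn1, Col3a1, Nid1 and Col1a2 followed, and the 5 highest genes together made up 77.7%. On average in the controls, 26 members were over 10 TPM and 24 were under 1 TPM. The basement membrane genes of middle level included Hspg2 at a median of 54.3 TPM, Col4a1 at 35.0 TPM, Lamc1 at 34.1 TPM and Lama2 at 10.7 TPM. In the order of mean level of the tested members, 36 of the 39 pairs of neighbors overlapped in their control libraries, and only Sparc and Fn1, Col3a1 and Nid1, and Col15a1 and Col17a1 were separate. None of the 20 untested members, among them Col2a1, Col4a3, Col4a4, Lama1 and Lama3, exceeded 1.28 TPM in any library. The whole set took 0.35% ± 0.038 (SD, n = 6) of all TPM in controls, while the 1 Hz tissues had 0.35% ± 0.093, the 4 Hz tissues 0.32% ± 0.045 and the 10 Hz tissues 0.37% ± 0.023, and the ranges of the 4 groups overlapped.

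**Figure D1:**
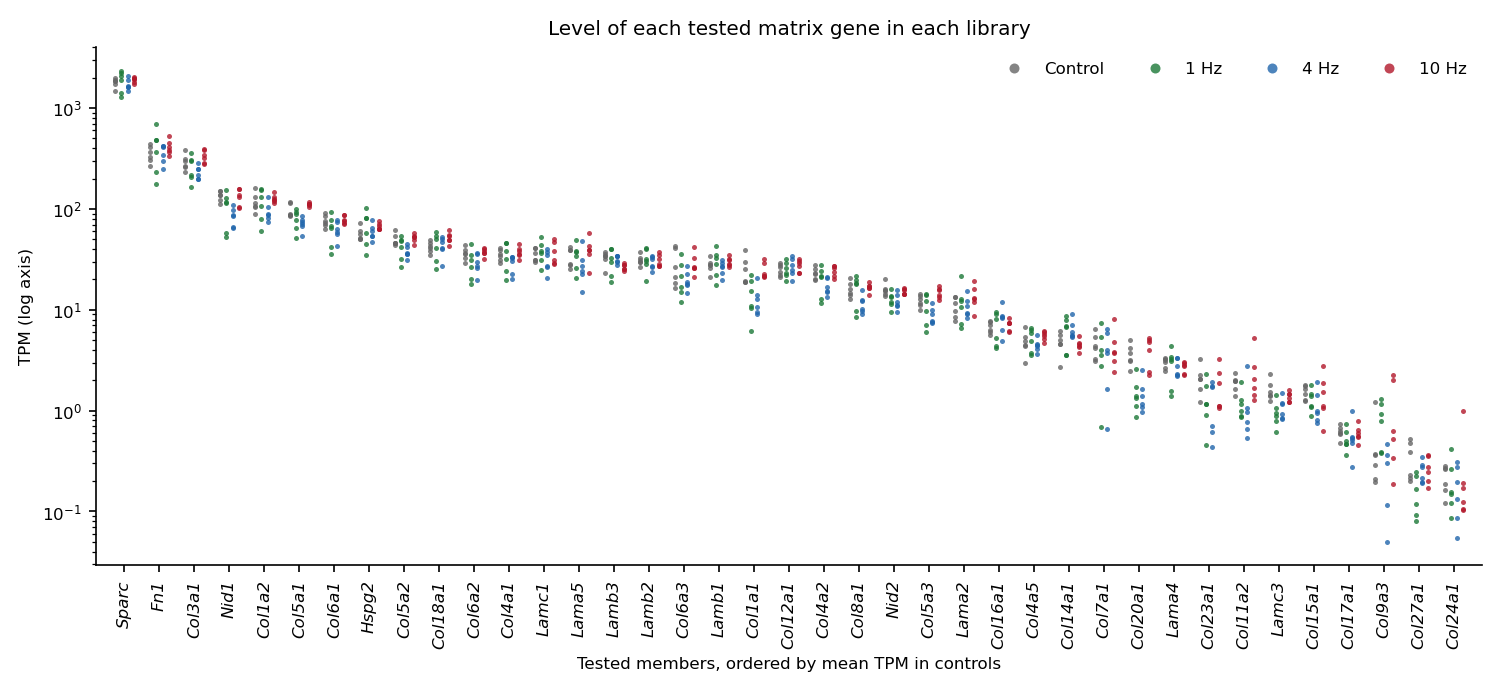
TPM (log axis) of 39 of the 40 tested matrix genes in each of the 24 libraries, with genes ordered by their mean in controls and 1 point per library, colored by condition. Sparc stands above all others in every library, and libraries of different conditions intermingle for most genes. Libraries in which a gene had 0 TPM are not drawn.

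Stimulation at 1 Hz and 4 Hz changed some matrix genes in each direction, and none passed at 10 Hz. At 1 Hz, 10 of 40 tested members passed an adjusted p under 0.05 in the edgeR quasi-likelihood test, against 37.3% of all genes tested, with 4 higher (19.2% of all genes) and 6 lower (18.1%). At 4 Hz, 12 of 40 passed against 51.4% of all genes, with 8 higher (27.5%) and 4 lower (23.9%). With a further limit of an absolute log2(fold change) over 0.5, 7 passed at 1 Hz (14.9% of all genes) and 6 at 4 Hz (25.1%). The median log2(fold change) of the 40 members was -0.02 at 1 Hz and -0.02 at 4 Hz, beside 0.04 and 0.06 over all genes. The split differed between fits. With limma on log2(TPM + 1), which differs from the edgeR fit in unit, filter and test, 36 members were tested, with 0 higher and 3 lower at 1 Hz (Col1a1, Col20a1 and Lamc3) and 0 higher and 9 lower at 4 Hz (those 3 with Col4a2, Col5a1, Col5a2, Col5a3, Nid1 and Nid2). Of the 13422 genes tested there, 25.4% passed at 1 Hz (481 higher, 2933 lower) and 41.7% at 4 Hz (782 higher, 4818 lower). Relative to the median of all genes on that scale, each member called on counts and tested there, 9 at 1 Hz and 12 at 4 Hz, kept its side. Without the 5 libraries with the length difference, 15 members passed at 1 Hz (10 higher, 5 lower, against 32.3% of all genes) and 7 at 4 Hz (3 higher, 4 lower, against 36.7%). With the length trend removed from the counts, 10 were higher and 5 lower at 1 Hz (37.1% of all genes) and 13 higher and 2 lower at 4 Hz (49.4%). With the length difference of each library as a covariate, these were 8 higher and 5 lower (31.4%) and 14 higher and 3 lower (36.0%). Of the members called at 4 Hz in the main fit, all 8 higher and 2 of the 4 lower still passed in each of the last 2 fits. Without the 5 libraries, 3 of those 8 and 3 of those 4 did. At 1 Hz all 4 higher still passed in the last 2 fits, with 5 of the 6 lower after trend removal and 4 with the covariate. At 1 Hz the share of members that passed was thus below that of all genes in the main edgeR fit. It was near that of all genes with the trend removed or with the covariate, and somewhat above it without the 5 libraries. At 4 Hz it was below that of all genes except with the covariate, where it was somewhat above. These differences in share were not tested. At 1 Hz the split also turned on single libraries, with 1 higher and 10 lower without 1 Hz replicate 1 (37.4% of all genes passed) and 1 and 7 without control replicate 3 (31.4%). It was 2 and 7 without control replicate 4 (30.8%), and 1 and 6 without 1 Hz replicate 3 (32.9%) or with the replicate block (34.6%). At 4 Hz 3 were higher and 5 lower without control replicate 3 (46.5% of all genes passed). There 4 or 5 were higher and 4 lower without control replicate 1, 4 or 6 or 4 Hz replicate 3, 4 or 5 (46.0% to 50.2%). All comparisons with control share the same 6 control libraries.

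**Figure D2:**
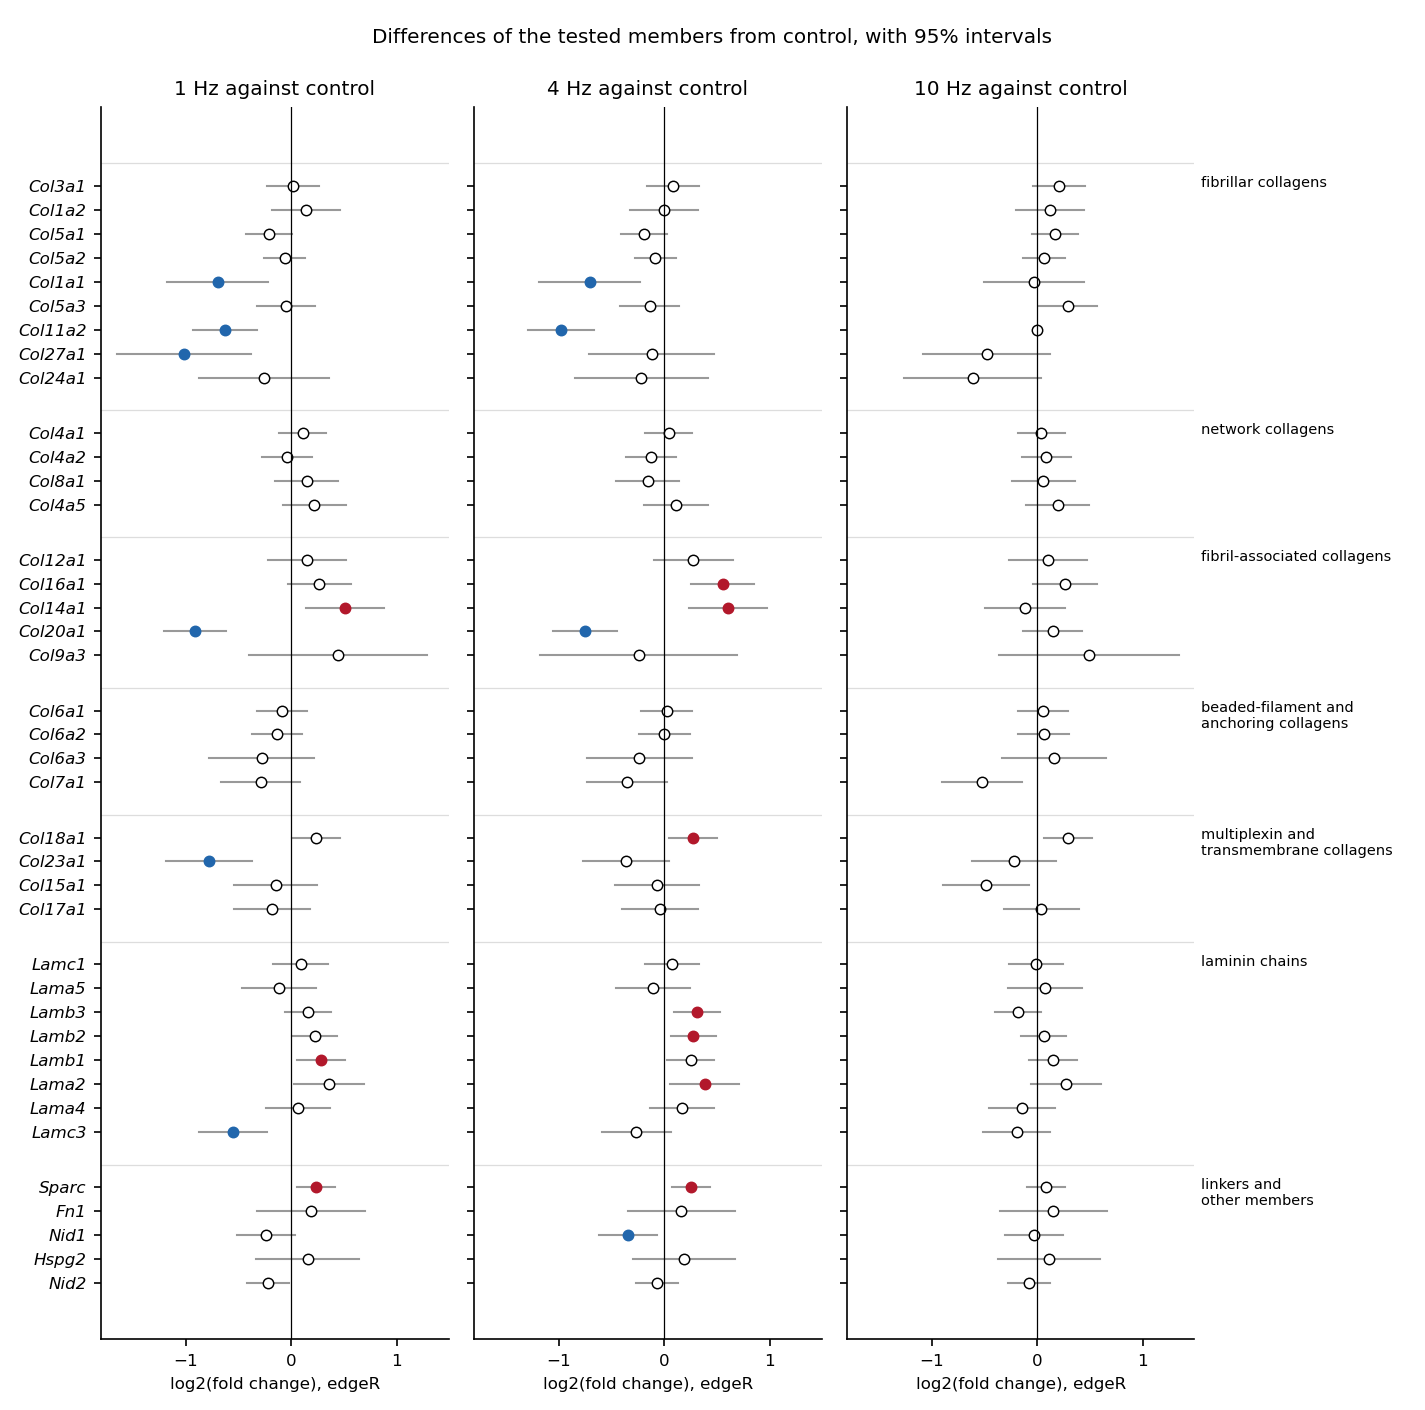
Log2(fold change) against control of 39 of the 40 tested members at 1, 4 and 10 Hz, from edgeR on counts, grouped by class and ordered by level, with 95% intervals as bars. Filled points passed an adjusted p under 0.05, red for higher and blue for lower, and open points did not. Col11a2 at 10 Hz lies near 0 and is drawn without an interval.

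Among the fibrillar collagens, 3 of 9 tested were lower at 1 Hz (18.1% of all genes) and 2 of 9 were lower at 4 Hz (23.9%). None was higher at either (19.2% and 27.5% of all genes). Col1a1, which encodes the alpha1 chain of collagen I, ranged from 69.3 through a median of 87.3 to 155 CPM in controls, from 33.4 through 62.3 to 88.0 CPM at 1 Hz and from 43.3 through 56.4 to 85.9 CPM at 4 Hz. At 10 Hz it ranged from 79.2 through 87.0 to 119.6 CPM. Most libraries at 1 and 4 Hz lay below the controls, but the ranges overlapped, with 4 of 6 at 1 Hz and 5 of 6 at 4 Hz under the lowest control. Its log2(fold change) was -0.70 ± 0.23 (SE, n = 6) at 1 Hz with an adjusted p of 0.021 in edgeR, and -0.71 ± 0.23 at 4 Hz with an adjusted p of 0.014. Col1a1 no longer passed without the 5 libraries named above (a fit added after the data were seen), at -0.55 with an adjusted p of 0.138 at 1 Hz and -0.67 with 0.092 at 4 Hz, nor at 1 Hz without control replicate 2, at -0.51 with 0.069. At both frequencies Col1a1 also lost its call with the length trend removed or as a covariate, and at 1 Hz with only the 2 groups compared. Its sign held in all these fits.

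Col11a2, a chain of the cartilage-type fibrillar collagen XI and a gene of low level here, was lower at 1 and 4 Hz. It ranged from 5.198 through 6.52 to 7.29 CPM in controls, from 3.31 through 4.19 to 4.70 CPM at 1 Hz, from 2.09 through 3.24 to 4.41 CPM at 4 Hz and from 5.02 through 6.71 to 7.37 CPM at 10 Hz. All 6 libraries at 1 Hz and all 6 at 4 Hz lay below every control in CPM, and those at 10 Hz overlapped the controls. In TPM the libraries at 1 and 4 Hz also overlapped the controls. The differences were -0.63 ± 0.14 at 1 Hz (adjusted p = 0.0014 in edgeR) and -0.98 ± 0.15 at 4 Hz (adjusted p = 9.4e-06), whereas on log2(TPM + 1) they were -0.42 and -0.50 and did not pass (adjusted p = 0.155 and 0.060). Col27a1, another fibrillar chain of low level, passed at 1 Hz, falling from a mean of 1.59 ± 0.76 (SD, n = 6) to 0.81 ± 0.30 CPM (log2(fold change) -1.02 ± 0.30, adjusted p = 0.010 in edgeR). Without the 5 libraries its adjusted p was 0.106, and over all fits its log2(fold change) lay between -1.175 and -0.64.

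The more abundant fibrillar genes apart from Col1a1 did not pass against control at either frequency in edgeR, although limma on log2(TPM + 1) called Col5a1, Col5a2 and Col5a3 lower at 4 Hz. Col3a1 had medians of 707, 768, 783 and 811 CPM in control, 1 Hz, 4 Hz and 10 Hz tissues, and its control libraries ran from 617 to 963 CPM. Col1a2, partner chain of Col1a1 in collagen I, had medians of 388, 432, 393 and 444 CPM, with controls from 285 to 565 CPM. The log2(fold change) of the fibrillar genes that did not pass in edgeR ran from -0.26 to 0.14 at 1 Hz and from -0.22 to 0.08 at 4 Hz, with 95% intervals reaching from -0.88 to 0.48.

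The fibril-associated collagens moved both ways, with 1 of 5 tested higher and 1 lower at 1 Hz, and 2 higher and 1 lower at 4 Hz. Of all genes, 19.2% were higher and 18.1% lower at 1 Hz, and 27.5% and 23.9% at 4 Hz. Col20a1, whose product resembles collagen XIV in its domains, ranged from 6.29 through 7.06 to 8.47 CPM in controls, from 2.77 through 3.74 to 5.09 CPM at 1 Hz, from 3.27 through 4.28 to 5.17 CPM at 4 Hz and from 6.396 through 7.58 to 9.62 CPM at 10 Hz. All 12 libraries at 1 and 4 Hz lay below all 6 controls, and the 10 Hz libraries overlapped the controls. It fell by 0.91 on the log2 scale at 1 Hz (SE 0.14, adjusted p = 2.4e-05 in edgeR) and by 0.75 at 4 Hz (SE 0.14, adjusted p = 1.4e-04). Col20a1 passed in both comparisons under each alternative tried, log2(TPM + 1) included, where it stood at -0.89 and -0.91.

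Col14a1, a fibril-associated collagen that binds other fibrils and regulates their diameter, was higher. It ranged from 7.38 through 12.8 to 17.1 CPM in controls, from 11.6 through 18.6 to 25.8 CPM at 1 Hz, from 17.2 through 19.2 to 23.0 CPM at 4 Hz and from 10.1 through 11.7 to 14.2 CPM at 10 Hz. All 4 Hz libraries lay above all controls, and 4 of 6 at 1 Hz did. The differences were 0.51 ± 0.18 (adjusted p = 0.027 in edgeR) and 0.60 ± 0.18 (adjusted p = 0.0064), and on log2(TPM + 1) they kept their sign at 0.29 and 0.37 without passing. At 1 Hz the adjusted p was between 0.069 and 0.098 without control replicate 3, 1 Hz replicate 1 or 1 Hz replicate 3. Col16a1, which encodes a further fibril-associated chain, ranged from 11.6 through 17.5 to 17.9 CPM in controls, from 14.2 through 19.3 to 25.0 CPM at 1 Hz and from 18.8 through 22.2 to 33.5 CPM at 4 Hz. Each 4 Hz library exceeded each control, at 0.55 ± 0.14 (adjusted p = 0.0024 in edgeR, and 0.20 on log2(TPM + 1) without passing), whereas the 1 Hz libraries overlapped the controls and did not pass.

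**Figure D3:**
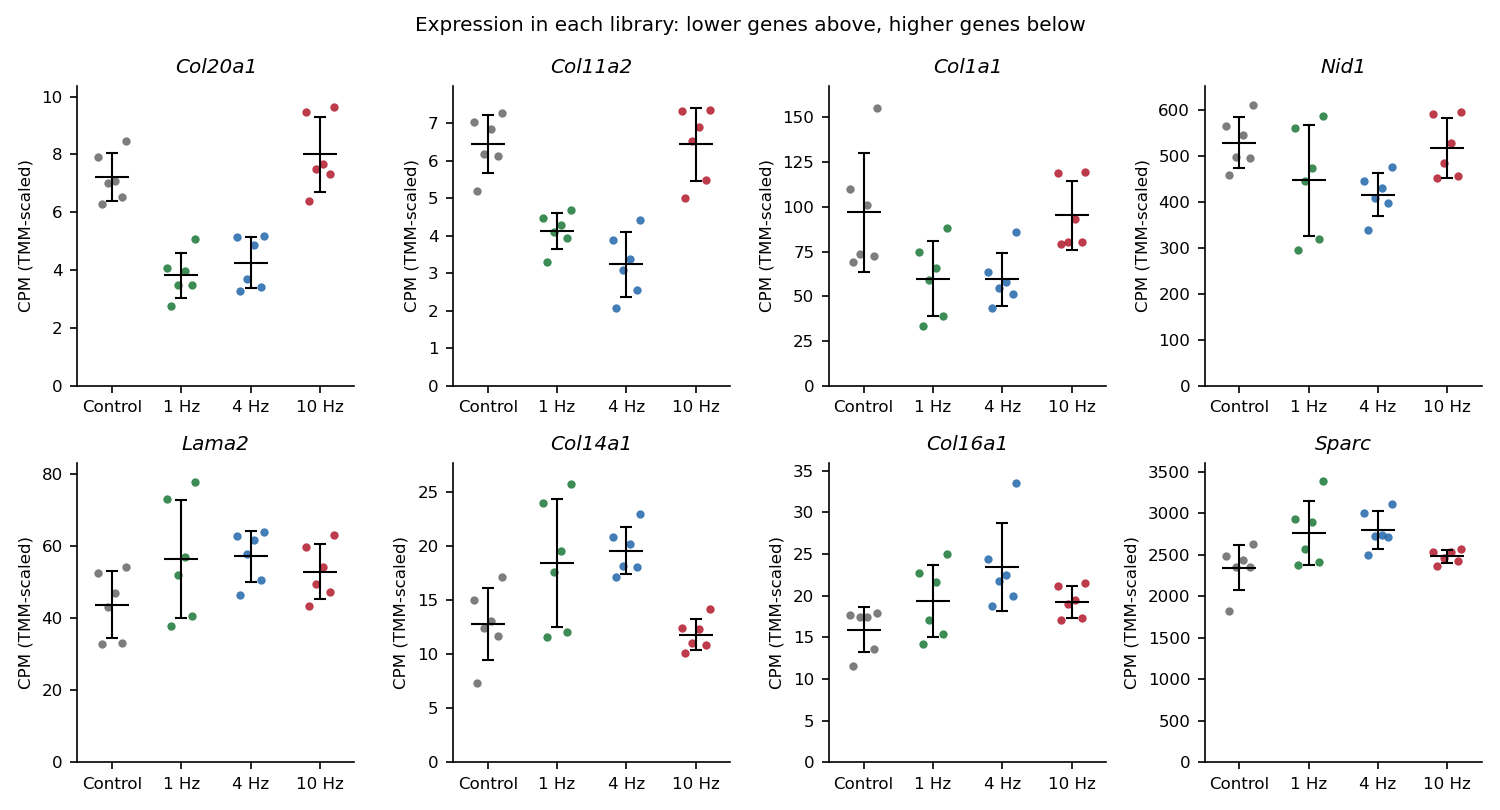
TMM-scaled CPM in each library of 4 genes that were lower (top row) and 4 that were higher (bottom row) in at least 1 comparison with control, with 6 libraries per condition. Lines and bars give the mean and SD, and every y axis starts at 0. Col20a1 and Col11a2 do not overlap between control and 1 or 4 Hz tissues, whereas Col1a1, Nid1, Lama2 and Sparc do.

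Of the laminin chains, 2 of 9 were higher and 1 lower at 1 Hz and 4 of 9 higher and 0 lower at 4 Hz in edgeR. Of all genes, 19.2% and 27.5% were higher and 18.1% and 23.9% lower there. With limma on log2(TPM + 1), 0 of 9 were higher and 1, Lamc3, was lower at both frequencies. Lamb3, which encodes a laminin beta chain, passed at 4 Hz at 0.31 ± 0.11 (adjusted p = 0.016 in edgeR, mean 92.8 against 74.8 CPM), and turned to -0.02 on log2(TPM + 1). Its adjusted p was 0.066 without control replicate 3 and 0.065 without 4 Hz replicate 4.

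Of the chains of muscle laminins, Lama2 ranged from 32.9 through 45.0 to 54.3 CPM in controls and from 46.5 through 59.7 to 64.0 CPM at 4 Hz, where it passed at 0.38 ± 0.16 (adjusted p = 0.047 in edgeR), but stood at 0.015 on log2(TPM + 1) (adjusted p = 0.96). Lamb2, whose product is found at synapses, ranged from 91.2 through 95.01 to 113 CPM in controls and from 100.5 through 123 to 141 CPM at 4 Hz, at 0.27 ± 0.10 (adjusted p = 0.028 in edgeR), but turned to -0.09 on log2(TPM + 1). Lamb1 passed at 1 Hz only, at 0.28 ± 0.11 (adjusted p = 0.043 in edgeR, and 0.054 with 0.83 on log2(TPM + 1)), with 82.3 through 101 to 122 CPM in controls and 91.9 through 116 to 165 CPM at 1 Hz, and its difference between 4 Hz and 1 Hz did not pass. All 3 genes overlapped between groups. Lama2 and Lamb2 at 4 Hz and Lamb1 at 1 Hz kept their calls with the length trend removed or as a covariate. Without the 5 libraries with the length difference, Lama2 and Lamb2 lost theirs. Lama2 and Lamb1 also lost their calls with DESeq2 size factors or the replicate block, and Lama2 with the DESeq2 test. Lamb1 and Lamb2 did with the GC trend removed, Lamb1 with only the 2 groups compared, and all 3 genes with no filter on low counts. Lama2 lost its call in 8 of the 12 fits that left out 1 library, and Lamb1 and Lamb2 in 7 each, in all 3 without control replicate 1, 3, 4 or 6 (adjusted p 0.053 to 0.141, 0.060 to 0.106 and 0.058 to 0.079). Lamc1, the gamma1 chain shared by most laminins, had medians of 153, 164, 160 and 145 CPM in the 4 groups and did not pass in the main edgeR fit. It was called higher at 1 and 4 Hz with the length trend removed or as a covariate. Lamc3, a gamma chain of low level, fell at 1 Hz from a mean of 6.12 ± 1.31 to 4.12 ± 0.99 CPM (log2(fold change) -0.56 ± 0.16, adjusted p = 0.0069 in edgeR), and passed there under each alternative tried.

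Among the linkers, Nid1, which bridges laminin and collagen IV, ranged from 457 through 522 to 611 CPM in controls, from 295 through 459.5 to 587 CPM at 1 Hz, from 338 through 419 to 475 CPM at 4 Hz and from 451 through 506 to 595 CPM at 10 Hz. At 4 Hz 5 of 6 libraries lay under the lowest control, and at 1 Hz 3 of 6 did, with the other 3 inside the control range. It passed at 4 Hz at -0.35 ± 0.13 (adjusted p = 0.030 in edgeR), but stood at 0.04 when the length difference of each library entered the fit as a covariate. Without control replicate 2 it was -0.30 with an adjusted p of 0.073, and without 4 Hz replicate 4 it was -0.32 with 0.058. Nid2 had medians of 46.3, 40.4, 46.9 and 46.4 CPM and Hspg2 of 298, 334, 349 and 299 CPM in control, 1 Hz, 4 Hz and 10 Hz tissues, and neither passed in the main edgeR fit. Nid2 was called lower at 1 Hz by DESeq2, by edgeR with a stricter filter on reads, and without control replicate 3, control replicate 4 or 1 Hz replicate 1. It was also called lower at 4 Hz by limma on log2(TPM + 1). Hspg2 was called higher at 4 Hz with the length difference as a covariate (adjusted p = 0.0057 in edgeR). Hspg2 and Fn1 spread widely among replicates at 1 Hz, Hspg2 from 169.7 to 617 CPM and Fn1 from 823 to 3192 CPM, and the controls of Fn1 ran from 1155 through 1536 to 2014 CPM.

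Sparc ranged from 1829 through 2393 to 2627 CPM in controls, from 2373 through 2734 to 3395 CPM at 1 Hz, from 2497 through 2733 to 3118 CPM at 4 Hz and from 2367 through 2497 to 2570 CPM at 10 Hz. At 4 Hz 5 of 6 libraries and at 1 Hz 3 of 6 exceeded the highest control. The rise was small, at 0.24 ± 0.09 (adjusted p = 0.034 in edgeR) and 0.26 ± 0.09 (adjusted p = 0.016), and on log2(TPM + 1) the difference was 0.02 at 1 Hz and turned to -0.07 at 4 Hz. Without control replicate 3, the lowest control, the adjusted p was 0.094 at 1 Hz and 0.074 at 4 Hz, and it was between 0.055 and 0.138 without each of control replicate 4 and 1 Hz replicates 1, 2 and 3 at 1 Hz and 4 Hz replicates 3 and 5 at 4 Hz.

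Of 4 tested transmembrane and multiplexin collagens, 1 was called at 1 Hz (37.3% of all genes) and 1 at 4 Hz (51.4%) in edgeR. On log2(TPM + 1) 0 were called at either. Col23a1, a transmembrane collagen, fell at 1 Hz from 4.02 through 4.79 to 5.87 CPM in controls to 1.11 through 3.12 to 3.60 CPM, with all 6 libraries below the controls (-0.78 ± 0.20, adjusted p = 0.0032 in edgeR, and -0.45 with 0.142 on log2(TPM + 1)). Col18a1, source of endostatin and a basement membrane component, was higher at 4 Hz at 0.27 ± 0.11 (adjusted p = 0.041 in edgeR, mean 134 against 111 CPM), but stood at 0.012 on log2(TPM + 1) (adjusted p = 0.96), and lost the call in 9 of the 12 fits without 1 library, with an adjusted p of 0.153 without 4 Hz replicate 4 and 0.121 without control replicate 3.

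No network collagen and no beaded-filament or anchoring collagen passed against control in edgeR or DESeq2, and 0 of the 8 had an unadjusted p under 0.05 at 1 Hz (46.9% of all genes) or 4 Hz (57.2%), although limma on log2(TPM + 1) called Col4a2 lower at 4 Hz. Col4a1 and Col4a2, the chains of the main collagen IV trimer, had medians of 127 and 95.6 CPM in controls, 140 and 91.7 CPM at 1 Hz, 134 and 86.3 CPM at 4 Hz and 135 and 102 CPM at 10 Hz. The control libraries of Col4a1 ran from 104 to 163 CPM and those of Col4a2 from 76.7 to 119 CPM. The 4 tested network genes lay between -0.04 and 0.22 at 1 Hz and between -0.16 and 0.11 at 4 Hz on the log2 scale, and the 95% intervals of both comparisons reached from -0.46 to 0.52. Col6a1, for a chain of collagen VI, which anchors the fiber to its surroundings, had medians of 197, 180.0, 199 and 206 CPM in the 4 groups, with controls from 170.4 to 243 CPM. With Col6a2, Col6a3 and Col7a1 the class lay between -0.29 and -0.09 at 1 Hz and between -0.35 and 0.02 at 4 Hz. In all, 24 of the 40 tested members passed in no comparison with control in the main edgeR fit. Of these, Col4a2, Col5a1, Col5a2, Col5a3 and Nid2 were called at 4 Hz by limma on log2(TPM + 1), and Nid2 at 1 Hz by DESeq2 and some other edgeR fits. Lamc1 was called higher at 1 and 4 Hz with the length trend removed or as a covariate. With the covariate, Fn1 was called higher at 1 and 4 Hz and Hspg2 at 4 Hz. This list is not complete. At 4 Hz 13 members were higher with the length trend removed and 14 with the covariate, the 8 of the main fit included, and not all of them are named here.

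At 10 Hz, 0 of 40 members passed in edgeR against 0.0376% of all genes, and 4 had an unadjusted p under 0.05 against 8.07% of all genes. DESeq2 and limma on log2(TPM + 1) also called 0. The log2(fold change) of the 40 members ran from -0.61 to 0.49, with a median of 0.07 beside 0.01 over all genes, and the 95% intervals reached from -1.26 to 1.34. Members whose control and stimulated libraries did not overlap numbered 3 at 1 Hz (14.1% of all genes), 5 at 4 Hz (27.6%) and 0 at 10 Hz (1.64%).

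The frequencies were also compared with each other. Between 4 Hz and 1 Hz, 0 of 40 members passed in edgeR, as did 0 of all genes tested (0%), and 3 members had an unadjusted p under 0.05 against 11% of all genes. DESeq2 and limma on log2(TPM + 1) called 0 as well. Between 10 Hz and 1 Hz, 8 members passed against 27.9% of all genes, with 5 higher (14.8%) and 3 lower (13.1%). Between 10 Hz and 4 Hz 8 passed against 46.3%, with 5 higher (21.9%) and 3 lower (24.4%). The split of the second turned both ways. It was 2 higher and 10 lower after removal of the length trend (45.8% of all genes passed) and 2 and 9 with the length difference as a covariate (29.0%). In limma on log2(TPM + 1) it was 11 higher and 0 lower, where 4459 of 13422 genes were higher and 679 lower. Between 10 Hz and 1 Hz these fits gave 3 higher and 4 lower, 4 and 4, and 4 and 0 (29.9%, 21.5% and 17.7% of all genes passed). There the split was 9 and 3 without 1 Hz replicate 1 (29.3% of all genes passed) and 3 and 3 without 1 Hz replicate 6 (21.8%) or 10 Hz replicate 4 (22.6%). Between 10 Hz and 4 Hz it was 5 and 5 without 4 Hz replicate 6 (46.9%). With the limit on fold change 5 passed in the first of these comparisons (10.8% of all genes) and 4 in the second (21.2%). Against 1 Hz, 10 Hz tissues had more Col20a1 (1.06 ± 0.14, adjusted p = 8.7e-06 in edgeR), Col11a2 (0.63), Col5a1 (0.38), Col1a1 (0.67) and Col23a1 (0.57), and less Col14a1 (-0.62) and Lamb3 (-0.34). Against 4 Hz they had more Col11a2 (0.98 ± 0.15, adjusted p = 1.8e-05 in edgeR), Col20a1 (0.90), Col5a1 (0.37), Col5a3 (0.43) and Col1a1 (0.68), and less Lamb3 (-0.49) and Col14a1 (-0.72). With the length trend removed or as a covariate, Col5a1, Col5a3 and Col1a1 lost their calls against 4 Hz, and Col1a1 against 1 Hz. Without the 5 libraries with the length difference, Col1a1 lost both calls and Col5a1 that against 1 Hz. On log2(TPM + 1) Lamb3 and Col14a1 passed in neither comparison, and Col11a2 and Col23a1 did not pass against 1 Hz.

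The Col5a1 and Col5a3 genes encode chains of collagen V, which sits inside collagen I fibrils and limits their width. Col5a1 had a median of 365 CPM in controls, with 328 CPM in 1 Hz, 334 CPM in 4 Hz and 437 CPM in 10 Hz tissues. All 6 libraries at 10 Hz exceeded those at 4 Hz, and neither gene passed between control and any frequency in edgeR, although limma on log2(TPM + 1) called both lower at 4 Hz. Groups did not overlap in 3 members between 10 and 1 Hz (7.7% of all genes), in 6 between 10 and 4 Hz (18.9%) and in 0 between 4 and 1 Hz (0.376%).

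The ratio of partner genes within a library does not depend on how libraries are scaled, and 8 ratios in TPM were compared with control at 3 frequencies by exact two-sided permutation tests, adjusted over the 24. Col1a1 to Col1a2, the 2 chains of collagen I, had a median ratio of 0.220 in controls (0.177 to 0.243), 0.121 at 1 Hz (0.0968 to 0.147), 0.128 at 4 Hz (0.114 to 0.157) and 0.187 at 10 Hz (0.168 to 0.219). All libraries at 1 and 4 Hz lay below all controls, with p = 0.0022 in each exact test, the smallest value 6 against 6 can give, and an adjusted p of 0.013. Col3a1 to Col1a1 went from 12.2 in the median control (9.85 to 14.0) to 19.5 at 1 Hz (15.5 to 26.6) and 20.1 at 4 Hz (14.0 to 21.8), also with an adjusted p of 0.013 in the exact tests, and 13.5 at 10 Hz. These ratios share Col1a1 and are not independent.

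Without the 5 libraries with the length difference, the log2 differences in Col1a1 to Col1a2 were -0.82 at 1 Hz and -0.65 at 4 Hz. The exact p was then 0.0048 and 0.012, in each case the smallest that 4 or 3 libraries against 6 can give, and the adjusted p was 0.057 and 0.071. Nid1 to Nid2 fell at 4 Hz from a median of 8.43 (7.44 to 9.49) to 6.99 (6.11 to 7.82), with an adjusted exact p of 0.042, and at -0.23 without those libraries it did not pass (adjusted p = 0.286). Col4a1 to Col4a2, Col6a1 to Col6a2, Lamb1 to Lamb2, Lama2 to Lamc1 and Col5a1 to Col5a2 did not pass at any frequency in TPM, whereas from counts Col4a1 to Col4a2 passed at 1 and 4 Hz and Lama2 to Lamc1 at all 3 frequencies (adjusted exact p 0.0087 to 0.016). In controls the Col6a1 to Col6a2 ratio had the smallest spread of the 8, from 2.00 to 2.18.

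**Figure D4:**
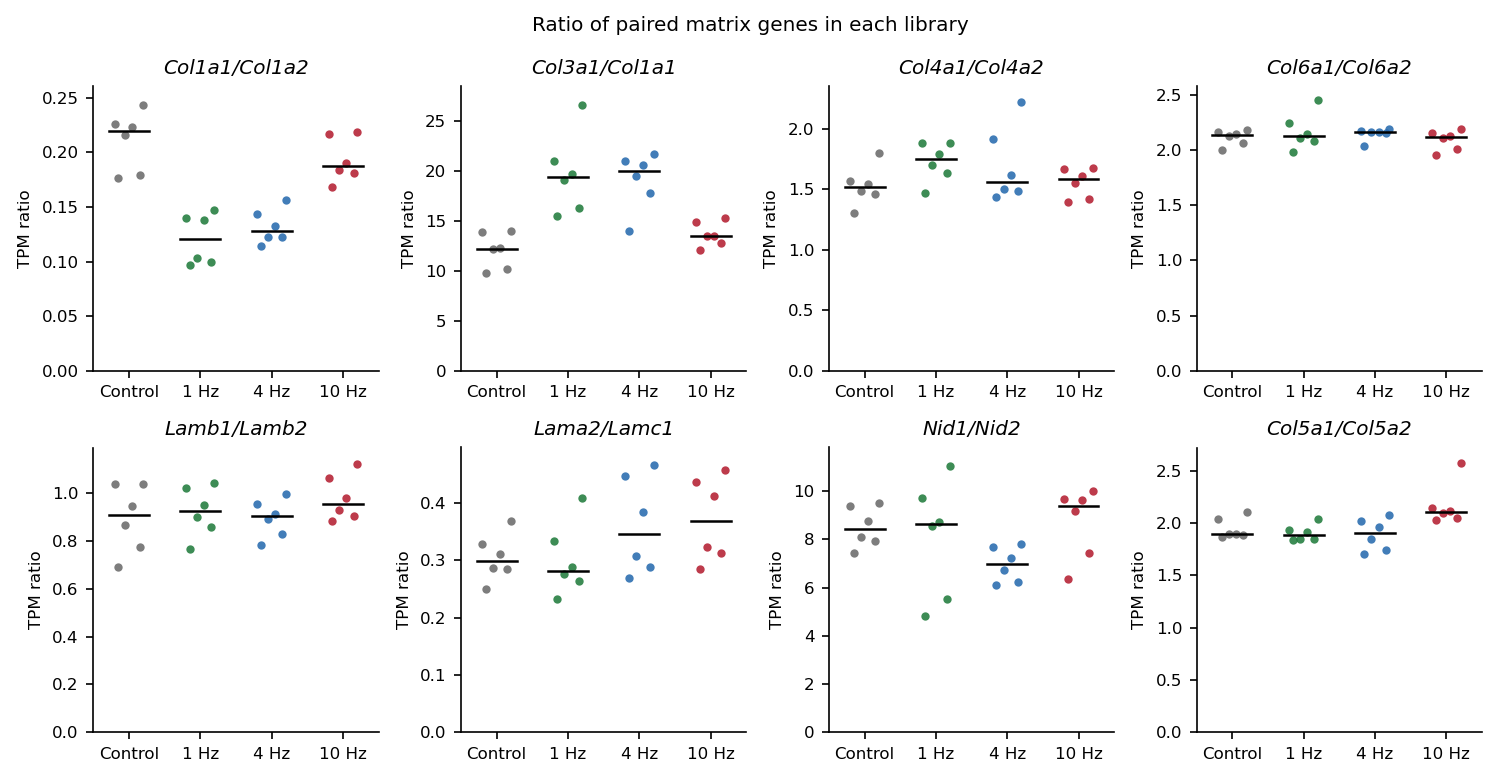
Ratio in TPM of 8 pairs of matrix genes in each library (6 per condition), with the median as a line and y axes from 0. The Col1a1/Col1a2 ratio is lower and the Col3a1/Col1a1 ratio higher at 1 and 4 Hz than in controls, while the Col6a1/Col6a2 ratio has medians of 2.12 to 2.16 in all 4 groups.

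Within conditions the matrix genes varied together. For the 28 members at a mean log2 CPM of 4 or more, the deviation of each library from its condition mean was correlated over 24 libraries, and the median r of the 378 pairs was 0.70, beside -0.0016 for all pairs of genes tested. After removal of the length trend it was 0.61. The points share libraries and their depth. The lowest r was -0.31. Fn1 and Col3a1 served as 2 reference genes, and no grouping of the genes was computed. Several members went with both, such as Col5a1 (r = 0.81 with Fn1 and 0.74 with Col3a1) and Col4a1 (0.76 and 0.75). Fn1 went closely with Hspg2 (r = 0.982, rho = 0.961, permutation p = 1e-05 for each, the smallest 100000 permutations can give, r = 0.966 without the 2 libraries farthest from the median of Fn1), and followed Lama5, Col6a3, Col12a1, Lama2 and Nid1 at r of 0.92 or more. Col3a1 went with Col1a1 (r = 0.935, rho = 0.937, permutation p = 1e-05 for each, r = 0.93 without 2 libraries) and Col1a2, at an r of 0.91. Between Fn1 and Col3a1 r was 0.446 and rho 0.359 (permutation p = 0.083 and 0.136), and r was 0.221 without the 2 libraries farthest from the median of Fn1.

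Chain partners correlated in the same way. Col4a1 and Col4a2 had an r of 0.942 and a rho of 0.863 (permutation p = 1e-05 and 2e-05, r = 0.906 without 2 libraries). Col6a1 and Col6a2 had an r of 0.948 and a rho of 0.925, and Col1a1 and Col1a2 an r of 0.908 and a rho of 0.923 (permutation p = 1e-05 for each, r = 0.924 and 0.861 without 2 libraries). Over the 10 pairs of genes examined, 9 had an adjusted p of 7.4e-04 or less for r, and Fn1 with Col3a1 had 0.083. Nid1 and Nid2 had an r of 0.663 and a rho of 0.714 (permutation p = 6.7e-04 and 4.8e-04, r = 0.602 without 2 libraries), but an r of 0.333 after the length trend was removed. The deviation of Fn1 went with the length difference of the library (r = -0.762, rho = -0.690, permutation p = 5.4e-04 and 7.1e-04, adjusted p = 0.0022 and 0.0028, r = -0.634 without the 2 farthest libraries), and that of Col3a1 did not (r = 0.0091, rho = 0.041, permutation p = 0.971 and 0.866). Fn1 did not pass against control in the main edgeR fit or with the length trend removed from the counts. Entering the length difference as a covariate made Fn1 higher in stimulated tissues, with edgeR adjusted p-values of 0.041 (1 Hz) and 0.0049 (4 Hz). After trend removal its r was 0.964 with Hspg2 and 0.364 with Col3a1. The cause of the relation between Fn1 and the length difference was not tested.

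**Figure D5:**
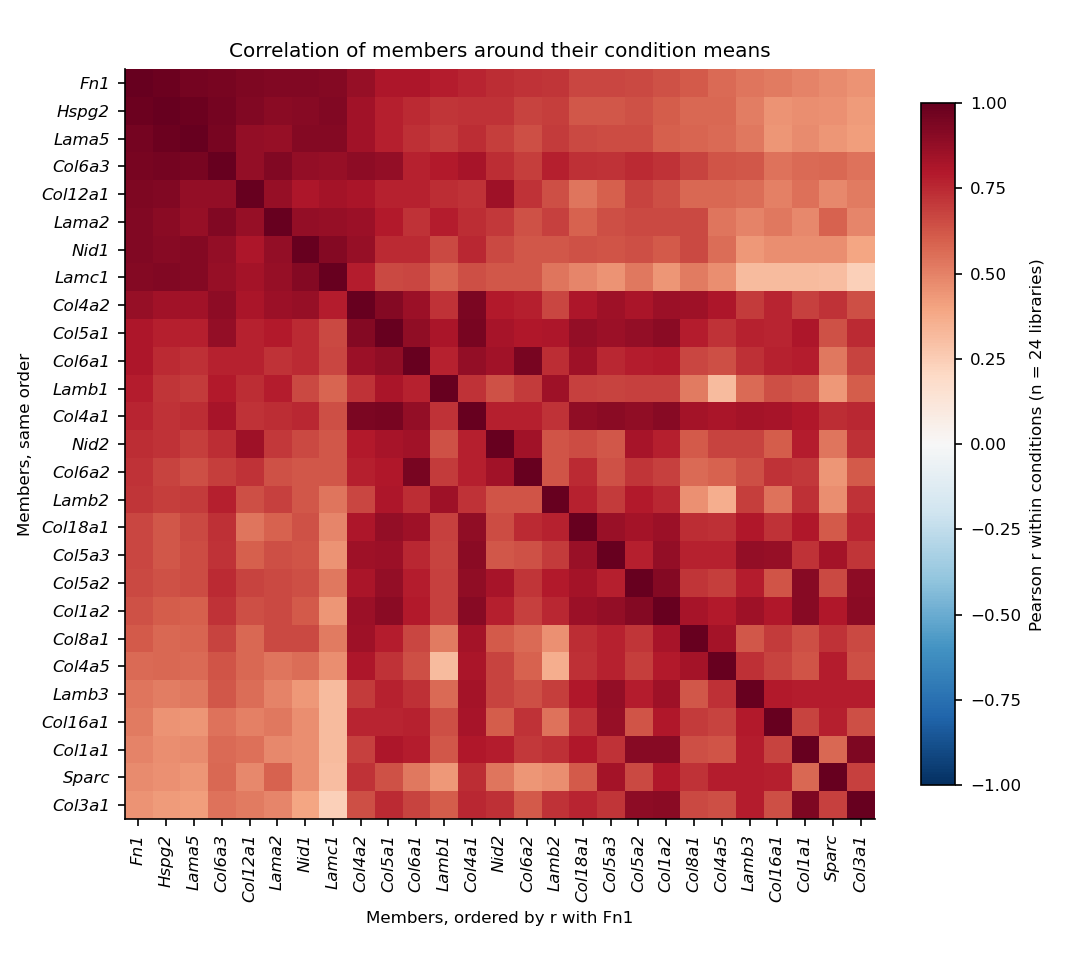
Pearson r over 24 libraries between deviations from the condition mean in log2 CPM, for 27 of the 28 matrix genes ordered by their r with Fn1. All pairs drawn are positive, with Fn1, Hspg2 and Lama5 forming 1 corner and Col1a1 and Col3a1 the other.

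Several members lie side by side in the genome. Col4a1 and Col4a2 overlap head to head on chromosome 8 by 356 bases, Col4a3 and Col4a4 by 159 bases on chromosome 1, and Col4a5 and Col4a6 start 1281 bases apart on chromosome X, and Col4a6 reached at most 0.441 TPM where Col4a5 had a median of 4.71 TPM in controls. As the use of strand in counting is not stated, reads of overlapping genes on opposite strands may not be separated, which touches 31 of the 40 tested members.

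Genes that make, modify and bind these proteins were compared in the same fits. Of 34 tested genes for collagen synthesis, 12 were higher (19.2% of all genes) and 4 lower (18.1%) at 1 Hz in edgeR. At 4 Hz 19 were higher (27.5%) and 4 lower (23.9%). At 10 Hz 0 passed, and 8 had an unadjusted p under 0.05 (8.07% of all genes). P4ha2 and P4hb, subunits of the prolyl 4-hydroxylase that stabilizes the triple helix, were higher at 4 Hz by 0.55 ± 0.07 and 0.44 ± 0.07 (adjusted p = 4.0e-07 and 1.6e-05 in edgeR). Pxdn, which forms sulfilimine crosslinks in collagen IV, was lower by -0.93 ± 0.17 (adjusted p = 9.3e-05 in edgeR), and Mia2, which takes part in export of large cargo from the endoplasmic reticulum, by -0.35 ± 0.09. On log2(TPM + 1) the same list gave 0 higher and 4 lower at 1 Hz and 1 higher and 7 lower at 4 Hz, so that the direction of its calls differed between the 2 fits, while its median stayed above that of all genes there (-0.07 against -0.14, and -0.11 against -0.21). Of all 13422 genes on that scale, 481 were higher and 2933 lower at 1 Hz, and 782 and 4818 at 4 Hz.

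Of 10 other basement membrane genes tested, 4 were higher (19.2% of all genes) and 0 lower (18.1%) at 1 Hz. At 4 Hz 6 were higher (27.5%) and 0 lower (23.9%). Vwa1, for a partner of perlecan, rose at 4 Hz from 26.0 to 51.2 CPM (0.98 ± 0.13, adjusted p = 1.0e-06 in edgeR, and 0.59 with 0.0013 on log2(TPM + 1)). Hmcn2, for hemicentin-2, stood at 0.70 ± 0.17 there (adjusted p = 0.0012 in edgeR). On log2(TPM + 1), 1 of 9 tested was higher and 2 lower at 4 Hz, beside 782 higher and 4818 lower of all 13422 genes. Of 27 interstitial matrix genes, 6 were higher and 1 lower at 1 Hz and 8 higher and 3 lower at 4 Hz in edgeR, beside the same shares of all genes. Among them were Ecm1 (0.39 ± 0.09) and Emilin1 (0.53 ± 0.12) above control and Ltbp2 (-0.57 ± 0.20) below it at 4 Hz. Fmod, for fibromodulin, was lower at a very low level, with a mean of 0.13 CPM at 4 Hz and 1.27 CPM in controls. On log2(TPM + 1), 0 of 25 were higher and 3 lower at 4 Hz.

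Receptors of these proteins gave 0 higher (19.2% of all genes) and 2 lower (18.1%) of 16 at 1 Hz. At 4 Hz they gave 6 higher (27.5%) and 1 lower (23.9%). Dag1, which encodes dystroglycan, the laminin receptor of the muscle fiber, fell by 0.30 at 1 Hz (SE 0.08, adjusted p = 0.0030 in edgeR), and Itga6, an integrin chain, by 0.26 (SE 0.10, adjusted p = 0.049). Bcam, a receptor for laminin alpha5, and the syndecan gene Sdc3 were higher at 4 Hz, by 0.35 ± 0.09 and 0.37 ± 0.10 (adjusted p = 0.0032 and 0.0034 in edgeR). On log2(TPM + 1), 0 of 13 receptors were higher and 4 lower at 4 Hz, beside 782 higher and 4818 lower of all 13422 genes. At 10 Hz 0 of the 10 basement membrane, 27 interstitial and 16 receptor genes passed in edgeR or in limma on log2(TPM + 1), and 3, 4 and 0 of them had an unadjusted p under 0.05 in edgeR (8.07% of all genes).

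Markers of myotubes, reserve myoblasts and other cell types were also compared, although the sheets were grown from 1 myoblast line. All 15 myotube markers were tested, and their summed level ran from 18953 to 23513 TPM in controls, 14167 to 21575 TPM at 1 Hz, 17358 to 21215 TPM at 4 Hz and 17410 to 20030 TPM at 10 Hz. Of the 15, 0 were higher and 1 lower at 1 Hz, 5 higher and 2 lower at 4 Hz, and 0 higher and 1 lower at 10 Hz in edgeR. Over all genes, 19.2% were higher and 18.1% lower at 1 Hz, 27.5% and 23.9% at 4 Hz, and 0.0376% passed at 10 Hz. Of 6 tested markers of undifferentiated reserve myoblasts, 4 were higher (Cd34, Myf5, Notch3 and Spry1) and 1 lower (Pax7) at both 1 and 4 Hz, and of 7 tested fibroblast markers 3 were higher (Ly6a, Osr1 and Pdgfra) and 0 lower at both. In limma on log2(TPM + 1), 0 myotube markers were higher and 3 lower at both 1 and 4 Hz and 0 passed at 10 Hz, 2 reserve myoblast markers were higher and 1 lower at both 1 and 4 Hz, and of the fibroblast markers 1 was higher at 1 Hz, 2 at 4 Hz and 0 lower. Of all 13422 genes on that scale, 481 were higher and 2933 lower at 1 Hz, and 782 and 4818 at 4 Hz. The summed reserve myoblast markers ran from 65.7 to 98.7 TPM in controls, 69.5 to 130 TPM at 1 Hz, 74.1 to 112 TPM at 4 Hz and 82.8 to 107 TPM at 10 Hz. The summed fibroblast markers, of which 1 had no count in any library, ran from 825 to 1089 TPM in controls, 1026 to 1837 TPM at 1 Hz, 1032 to 1399 TPM at 4 Hz and 1101 to 1258 TPM at 10 Hz. None of 8 endothelial and 5 adipocyte markers had enough reads to be tested, and the summed endothelial markers stayed at or under 1.08 TPM and the adipocyte markers at or under 1.34 TPM in every library. Of 6 Schwann cell markers 2 were tested (1 higher at 4 Hz), with sums of 1.63 to 3.25 TPM, and of 6 macrophage markers 1 was tested and did not pass, with sums of 55.7 to 103 TPM.

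The deviation of Col3a1 from its condition mean went with that of the reserve myoblast markers (r = 0.827, rho = 0.863, permutation p = 2e-05 and 1e-05, adjusted p = 1.6e-04 and 8.0e-05 over 8 relations, r = 0.833 without the 2 farthest libraries), and with that of the fibroblast markers (r = 0.634, rho = 0.553, permutation p = 0.0022 and 0.0088, adjusted p = 0.0058 and 0.0235, r = 0.491 without 2 libraries). For Fn1 the relation with reserve myoblast markers had an r of 0.569 and a rho of 0.501 (permutation p = 0.045 and 0.037, adjusted p = 0.090 and 0.074, r = 0.384 without 2 libraries), and that with fibroblast markers an r of 0.103 and a rho of 0.130 (permutation p = 0.712 and 0.564). In these bulk samples fewer cells of a type and less RNA per cell cannot be told apart, and the part of cell composition in the changes of the matrix genes was not tested.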

How the data were processed

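The authors sequenced poly(A)+ directional libraries of 50-base pairs on a Singular G4 and quantified them with salmon in nf-core/rnaseq on GRCm39 with Ensembl genes. Which samples were ribodepleted, and whether strand was used in counting, is not given in the sources used here. The deposited estimated counts per gene, not normalized by the authors, were rounded to whole numbers. The deposited TPM are the authors' length-scaled values.

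Genes were filtered with filterByExpr (10 reads in enough libraries, 15 in all), scaled by TMM and fitted in 1 model of 24 libraries with the robust quasi-likelihood F test of edgeR 4.0.16 in R 4.3.3, with Benjamini-Hochberg adjustment over 13315 genes. A gene passed at an adjusted p under 0.05, also counted with an absolute log2(fold change) over 0.5. Where edgeR is named without a further setting, this main fit is meant. The scripts were tested on simulated data. Alternatives used limma 3.58.1 on log2(TPM + 1) and log2(TPM + 0.1), DESeq2 1.42.0, other factors and filters, the replicate block, length and GC trends, and each library left out. Symbols, positions and coding sequences came from GENCODE M39, which held 98.9% of the gene IDs. The length difference of a library is the median log2 difference from the control mean in the 20% of genes with the shortest transcripts minus that in the longest 20%.

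Any member could be named, but 1 that counts toward the totals is not reported here by name. Values by library were given for 15 core genes and for the members with the smallest p, at most 3 in each direction at each frequency, and from each other list of genes the 2 with the smallest p in each direction were named. The members and the lists were chosen with earlier results of these data known. Alternatives for single genes are given for members that passed, a restriction made after the values were seen.

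Same-numbered replicates of different groups shared little of their deviation, with r from -0.33 to 0.24 and a median of -0.02, beside -0.0081 for other numbers. The highest was between 1 and 4 Hz, with a median of 0.06 beside -0.03 for other numbers. The numbers were therefore not taken to pair samples. Depth was 8052369 to 18159144 counts per library.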

Additional observations from a re-analysis of the deposited data

Results flagged for a closer look

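Within groups of 6 libraries, 3 of the 84 sets of values tested held a library that stood far from the rest by the critical value of Dixon's test, and chance would mark about 1 in 20. Col1a2 was high in 4 Hz replicate 5, at 520.8 CPM. Nid2 was high in control replicate 2, at 65.2 CPM. Sparc was low in control replicate 3, at 1829 CPM.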

How the results depend on the processing

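Calls of Col20a1 and Lamc3 at 1 Hz, Col20a1 at 4 Hz, Col20a1 between 10 and 1 Hz, and Col20a1 and Col11a2 between 10 and 4 Hz held under every alternative in which the gene was tested. Other single calls reported each failed under at least 1. Apart from fits without 1 library, single members that passed kept sign and side in 349 alternative values, lost the call in 83 and changed sign in 7.

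With limma on log2(TPM + 1), 3 members passed at 1 Hz (2 with the fold limit), 3 at 4 Hz with the fold limit, 4 between 10 and 1 Hz and 8 between 10 and 4 Hz with the fold limit. With log2(TPM + 0.1), these were 3 at 1 Hz, 3 with the fold limit, 4 between 10 and 1 Hz and 9 between 10 and 4 Hz with the fold limit. Sign changed under log2(TPM + 1) and log2(TPM + 0.1) for Sparc at 4 Hz (-0.072 and -0.072), Lamb3 at 4 Hz (-0.025 and -0.025) and Lamb2 at 4 Hz (-0.086 and -0.089), and for Nid1 at 4 Hz with the length difference as a covariate (0.035). With only the 2 groups compared, 6 passed at 1 Hz (34.4% of all genes) and 13 between 10 and 4 Hz (47.1%). The fold limit left 6 at 4 Hz, 5 between 10 and 1 Hz and 4 between 10 and 4 Hz. With the length trend removed, 4 passed with the fold limit at 1 Hz and 3 between 10 and 1 Hz. With it as a covariate, 8 did between 10 and 4 Hz. Without the 5 libraries named in the report, 7 passed at 4 Hz. These last 2 fits, and the ratios without those libraries, were added after the data were seen. The causes were not tested.

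With the replicate block, 7 members passed at 1 Hz (34.6% of all genes) and 11 at 4 Hz (49.9%), and the same-numbered samples were not shown to be paired. In the sign-flip test over replicate numbers, Col1a1/Col1a2 (-0.82 at 1 Hz, -0.67 at 4 Hz) and Col3a1/Col1a1 (0.70, 0.66) had the smallest exact p it can give, 0.031, with an adjusted p of 0.188, and Nid1/Nid2 at 4 Hz (-0.29) had 0.25. Without the 5 libraries, Col1a1/Col1a2 stood at -0.82 and -0.65, Col3a1/Col1a1 at 0.59 and 0.54 and Nid1/Nid2 at 4 Hz at -0.23, none with an adjusted p under 0.05, and Lama2/Lamc1 (0.094) and Nid1/Nid2 (0.16) changed sign at 1 Hz. From counts in place of TPM, Col4a1/Col4a2 at 10 Hz (-0.045), Lamb1/Lamb2 at 4 Hz (-0.016) and Lama2/Lamc1 at 1 Hz (0.28) changed sign, and Col4a1/Col4a2 at 1 and 4 Hz (0.15 and 0.17) and Lama2/Lamc1 at 4 and 10 Hz (0.33 and 0.30) passed, as did Lama2/Lamc1 at 1 Hz. The log2 ratio of the summed level of all members to control at 4 Hz was -0.14 in TPM and 0.10 in CPM.

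Without each library in turn, 7 to 12 members passed at 1 Hz, 8 to 13 at 4 Hz, 6 to 12 between 10 and 1 Hz and 8 to 10 between 10 and 4 Hz. Of all genes, 30.7% to 41.0%, 46.0% to 51.3%, 18.8% to 33.3% and 38.7% to 47.1% passed there, in the same order. With the fold limit 3 to 7 members passed at 4 Hz (3 without control replicate 3) and 3 to 6 between 10 and 1 Hz. Ratios ran from -0.018 to 0.076 for Col4a1/Col4a2, -0.029 to 0.0057 for Col6a1/Col6a2, -0.027 to 0.10 for Nid1/Nid2 and 0.10 to 0.17 for Col5a1/Col5a2 at 10 Hz, -0.015 to 0.11 for Lamb1/Lamb2, -0.13 to 0.036 for Lama2/Lamc1 and -0.24 to 0.0015 for Nid1/Nid2 at 1 Hz, and -0.057 to 0.060 for Lamb1/Lamb2 and -0.33 to -0.25 for Nid1/Nid2 at 4 Hz, which lost its call in 9 of 12 fits (adjusted exact p 0.021 to 0.094). Between 10 and 1 Hz, Col23a1 lost its call in 7 and Col1a1 in 5 of 12 such fits.

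Alternatives had been planned for every named member, but are given singly only for members that passed, a restriction made after many values near 0 were seen to change sign. Of 44 values of named members that did not pass, none above 0.37 in size on the log2 scale, 26 changed sign under at least 1 alternative and 14 passed under at least 1.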
